A study of Mus musculus with 7 samples.

Results

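Vanin 1 and the enzymes of coenzyme A synthesis were followed in the duodenum of mice with and without intestinal PPARα. The genes were taken by symbol from the deposited table: the pantetheinases Vnn1 and Vnn3, the pantothenate kinases Pank1, Pank2 and Pank3, and the later enzymes Ppcs, Ppcdc and Coasy. Of these 8 symbols, 7 were matched among the 14795 genes of the table, and Vnn3 was not analysed here. Values are normalised counts (CPM), in which reads on a gene are divided by an adjusted library size.

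RNA from whole duodenum was sequenced for 3 controls with floxed Ppara (lox/lox) and for 4 mice lacking it in the intestine (I-KO), all of them males after 8 weeks on high-fat diet (HFD). The labels give the strain as C57BL/6, and the study's methods a background that was mainly, not wholly, C57BL6/J. Every animal carries loxP sites on both alleles of Ppara, and the I-KO mice also carry Villin-Cre, a transgene whose promoter drives the recombinase in the intestinal epithelium. The controls were littermates without Cre, so the transgene and the loss of PPARα cannot be told apart here. Per the labels, food was withheld for 6 h and returned for 6 h before the mice were killed. The labels name no diet, which is taken from the study's methods, and those methods describe a plain fast before sacrifice as the default, so the feeding state rests on the labels alone. The age of these 7 mice is not stated, but other males of both genotypes began HFD at 8 weeks of age.

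Coenzyme A is the carrier of acyl groups in fatty acid oxidation and synthesis and in the citrate cycle, and cells build it from the vitamin pantothenate. Pantothenate kinases phosphorylate the vitamin in the rate-controlling step, PPCS adds cysteine, PPCDC removes its carboxyl group, and the bifunctional COASY completes the cofactor. Vanins stand outside this route. They are secreted or membrane-anchored enzymes that split pantetheine, a breakdown product of coenzyme A, into pantothenate and cysteamine, and VNN1 is present on the brush border of enterocytes. Vnn1 is known as a PPARα target gene in liver.

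Vnn1 lies on chr10:23894688-23905343 of GRCm38 (mm10), on the plus strand, 24844 bases downstream of the end of Vnn3. Since reads from a paralog could be placed on the wrong gene, the GENCODE transcripts of both were compared in windows of 100 bases, the read length. The closest pair of windows still differed at 19 positions, and the longest run of identical bases was 12. Both windows lie within coding sequence in exon 2 of 7, at chr10:23897302-23897401 in Vnn1 and chr10:23851916-23852015 in Vnn3. They are shown 5′ to 3′ because they set the limit for reads shared by the genes, with the differing bases in capitals.
Vnn1: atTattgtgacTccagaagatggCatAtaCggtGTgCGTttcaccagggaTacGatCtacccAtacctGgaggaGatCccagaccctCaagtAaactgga
Vnn3: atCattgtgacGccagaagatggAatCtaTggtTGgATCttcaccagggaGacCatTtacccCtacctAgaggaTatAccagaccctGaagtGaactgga

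The pantothenate kinase genes are also paralogs, and each hosts a microRNA on its own strand. It lies in an intron of 3 annotated transcripts of Pank1, 7 of Pank2 and 1 of Pank3. In the 1 GENCODE transcript looked up for each gene this is intron 5 of 6. The mature 3p strands below (RefSeq, GRCm38.p6) are printed because they show what these genes share beyond their enzyme activity, with the seed, bases 2 to 8, in capitals. The miR-103 sequence from Pank3, at chr11:35782447-35782469, and the copy from Pank2, at chr2:131288103-131288125, are the same, and miR-107 from Pank1, at chr19:34820700-34820722 on the minus strand, has the same seed.
miR-103-3p: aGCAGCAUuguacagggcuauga
miR-107-3p: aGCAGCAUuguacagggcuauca
The microRNAs themselves were not measured in these mRNA libraries. Among the kinase transcripts the closest windows of 100 bases differed at 16 positions for Pank1 and Pank2, 19 for Pank1 and Pank3 and 20 for Pank2 and Pank3. Pank2 shares 1125 exonic bases with Rnf24 on the opposite strand and 359 with Gm14233 on its own strand, so its value is less certain than the others. The library kit keeps strand, but the strand setting of the counting is not given in the sources used here.

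Between 20741419 and 25885331 reads per library fell on the listed genes. Of the 13399 genes with more than 1 CPM in at least 3 libraries, limma called 4 at an adjusted p of 0.05. The defining enterocyte markers were abundant in every library, Vil1 and Epcam among them, and the 10 genes of that list summed to 55825 to 65988 CPM among controls and 55795 to 72973 CPM among I-KO mice. Ppara itself had 49.3 to 63.2 CPM among controls and 33.0 to 69.9 CPM among I-KO mice, with 1 I-KO library above every lox/lox library, and this total over all exons and all cells of the tissue does not check the library labels. Acinar transcripts of the pancreas stood out in I-KO replicate 1, where 15 genes summed to 441 CPM, and in lox/lox replicate 2, with 99.8 CPM against 27.2 to 42.9 CPM in the others.

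Vnn1 was the member that differed most between the genotypes, with less transcript in I-KO duodena, while none of the synthesis enzymes was separated by genotype. Mean Vnn1 was 57.6 CPM among controls (± 25.1 SD, n = 3) against 28.1 CPM among I-KO mice (± 6.25 SD, n = 4), a ratio of 0.488. By limma, 0 of the 7 members passed at an adjusted p of 0.05, against 0.0299% of the genes tested (0.0224% higher and 0.00746% lower in I-KO duodena). At an unadjusted p of 0.05 there was 1, Vnn1, against 4.74% of all genes tested in either direction and 2.42% in its own. Vnn1 was also the only member of the 7 whose groups did not overlap, against 6.19% of all genes in either direction and 3.28% in its own direction.

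**Figure D1:**
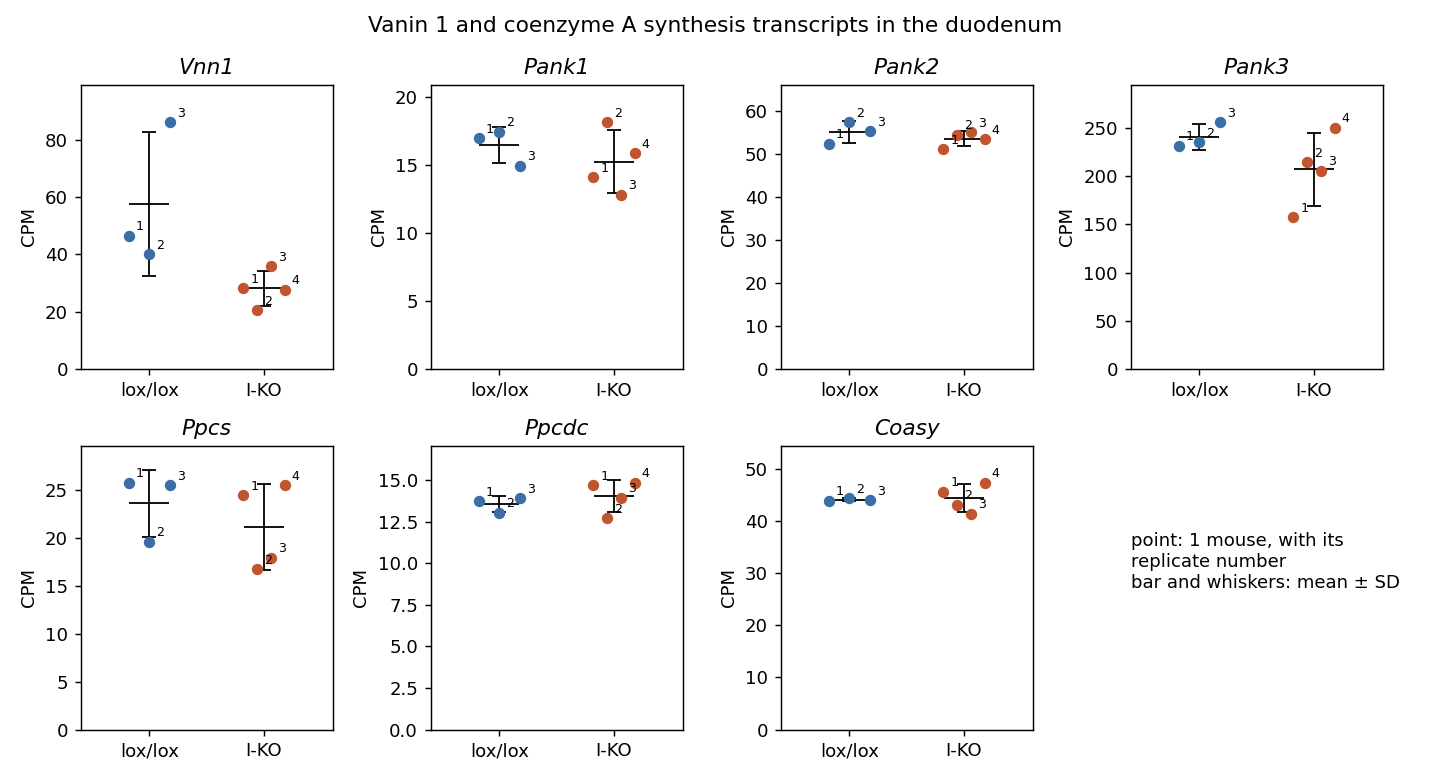
Normalised counts (CPM, axes from 0) of the 7 members by genotype, with a point for each mouse, its replicate number beside it, and the mean ± SD. The 4 I-KO points of Vnn1 lie below the 3 lox/lox points, the highest of which is 86.3 CPM, and the points of every other gene overlap.

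The controls, lox/lox replicates 1, 2 and 3, gave 46.5, 40.1 and 86.3 CPM for Vnn1. The I-KO mice gave 28.2, 20.6, 35.9 and 27.7 CPM, in the order of replicates 1 to 4. All 4 I-KO libraries were below every lox/lox library, and lox/lox replicate 3 stood far above the other 2 controls. The log2 fold change on the log2(CPM + 1) scale was -0.95 (standard error 0.26, 95% interval -1.55 to -0.36, adjusted p = 0.791 from limma), and its unadjusted p of 0.00535 ranked 89th of 13399 genes. Only 15 genes had a more negative fitted change. The exact two-sided permutation test gave p = 0.0286, the smallest that 3 mice against 4 allow. Without lox/lox replicate 3 the log2 fold change was -0.63 and without lox/lox replicate 2 it was -1.17, the extremes among single libraries left out, and without both libraries with acinar transcripts it was -1.18.

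The spread of Vnn1 between mice was far larger than its counting error. It was counted on 525 to 2197 reads per library, for which the counting SD is at most 4.36% of the value, while the coefficient of variation between mice was 43.5% in lox/lox and 22.2% in I-KO duodena. The highest library exceeded the lowest by 4.19-fold. In whole tissue, less RNA per enterocyte and fewer enterocytes cannot be told apart from this value alone. Vnn1 was also set against the summed enterocyte transcripts, which cannot settle this because such a sum does not count cells. Per 1000 CPM of the 10 markers, Vnn1 amounted to 0.705, 0.718 and 1.40 CPM in lox/lox replicates 1 to 3 and to 0.390, 0.370, 0.492 and 0.469 CPM in I-KO replicates 1 to 4. On this scale the groups did not overlap, with an I-KO mean of 0.457 of the lox/lox mean (exact two-sided permutation test, p = 0.0286). It is not a second, separate result, because the same Vnn1 values were divided by sums that overlap between the genotypes. With Vil1 and Epcam alone as the reference the ratio was 0.443. Of the 10 markers, 8 were higher and 2 lower in I-KO duodena by sign and 0 passed an adjusted p of 0.05 by limma. The groups did not overlap for 2 of them, in opposite directions, against 6.19% of all genes tested in either direction. Fabp1, a fatty acid binding protein of enterocytes, averaged 3669 CPM among controls (± 485 SD, n = 3) against 2495 CPM among I-KO mice (± 522 SD, n = 4; adjusted p = 0.822 from limma). All 4 I-KO libraries were below the controls for Fabp1, and its unadjusted p of 0.00621 from limma ranked 98th of 13399 genes. It was the only 1 of the 10 markers below an unadjusted p of 0.05, against 4.74% of all genes tested in either direction. Vil1, which encodes the brush border protein villin, averaged 2828 CPM (± 81.0 SD, n = 3) against 3126 CPM (± 184 SD, n = 4; adjusted p = 0.954 from limma).

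Pank3 had the highest level per kilobase among the pantothenate kinases and was the synthesis gene with the widest fitted difference. It lies on chr11:35769484-35791285 and gave 231, 235 and 256 CPM for the controls, in replicate order. The I-KO mice gave 157, 214, 206 and 250 CPM. Replicates 1 to 3 of I-KO were under all controls, and replicate 4 lay among them. The log2 fold change was -0.24 (standard error 0.14, 95% interval -0.56 to 0.09, adjusted p = 0.954 from limma). By the exact permutation test, two-sided, p was 0.200. Leaving out I-KO replicate 4 gave -0.33, and leaving out replicate 1 gave -0.11, the latter being the library with the most acinar transcripts, whose part in this value was not tested. Among I-KO libraries replicate 4 was the highest and replicate 1 the lowest for both Pank3 and Ppara. The order of replicates 2 and 3 was reversed, with 40.6 and 47.5 CPM of Ppara. A relation between these genes was not tested.

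Pank1 and Pank2 differed less. Pank1, on chromosome 19, had 14.97 to 17.5 CPM among controls and 12.8 to 18.2 CPM among I-KO mice, with a log2 fold change of -0.11 (95% interval -0.39 to 0.16). Pank2, on chromosome 2, whose human counterpart is mutated in a neurodegenerative disease with brain iron accumulation, had 52.4 to 57.5 CPM and 51.2 to 55.1 CPM. Its log2 fold change was -0.04 (95% interval -0.21 to 0.14), and its values had the narrowest range of the 7 members, 1.12-fold from the lowest to the highest library. Counted per kilobase of exon, Pank3 made up 71.2 ± 1.45% (SD, n = 3) of the summed kinase transcripts in lox/lox and 68.4 ± 3.63% (SD, n = 4) in I-KO duodena. Pank2 made up 24.4% and 27.1%, and Pank1 4.36% and 4.56%. The sum of the kinases was 45.9 ± 1.85 CPM per kilobase (SD, n = 3) in lox/lox and 40.8 ± 5.52 CPM per kilobase (SD, n = 4) in I-KO duodena (exact two-sided permutation test, p = 0.200).

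The later enzymes showed no separation by genotype, and their spread differed widely. Ppcs, on chr4:119418530-119422420, gave 25.8, 19.6 and 25.5 CPM for the controls, in replicate order, and 24.5, 16.7, 18.0 and 25.5 CPM for the I-KO mice. The widest gap, from 19.6 to 24.5 CPM, had 3 libraries below and 4 above it, with animals of each genotype on both sides. It was picked out after values were seen and was not tested. The widest gaps of Vnn1 and Pank3 were larger on the log2 scale (0.89 and 0.39 against 0.32), each setting 1 library apart. The counting SD is at most 5.43% of a Ppcs value. Its log2 fold change was -0.16 (standard error 0.17, 95% interval -0.54 to 0.21, adjusted p = 0.954 from limma). This value depended on which mice were used. With single libraries left out it ranged from -0.29 (lox/lox replicate 2) to -0.06 (I-KO replicate 2), and without both libraries with acinar transcripts it was -0.36.

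Ppcdc, on chromosome 9, had 13.0 to 13.9 CPM among controls and 12.7 to 14.8 CPM among I-KO mice, with a log2 fold change of 0.05 (95% interval -0.14 to 0.23). Coasy, on chromosome 11, was nearly the same in the 3 lox/lox mice, with 43.9, 44.4 and 44.0 CPM. In I-KO mice it had 45.6, 43.1, 41.4 and 47.3 CPM, on either side of the controls. Its log2 fold change was 0.01 (95% interval -0.17 to 0.19), and the sign turned with column totals as the scaling (-0.03). Over the 6 synthesis genes the median log2 fold change was -0.08, with 4 below and 2 above 0, against a median of 0.00169 over all genes tested.

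**Figure D2:**
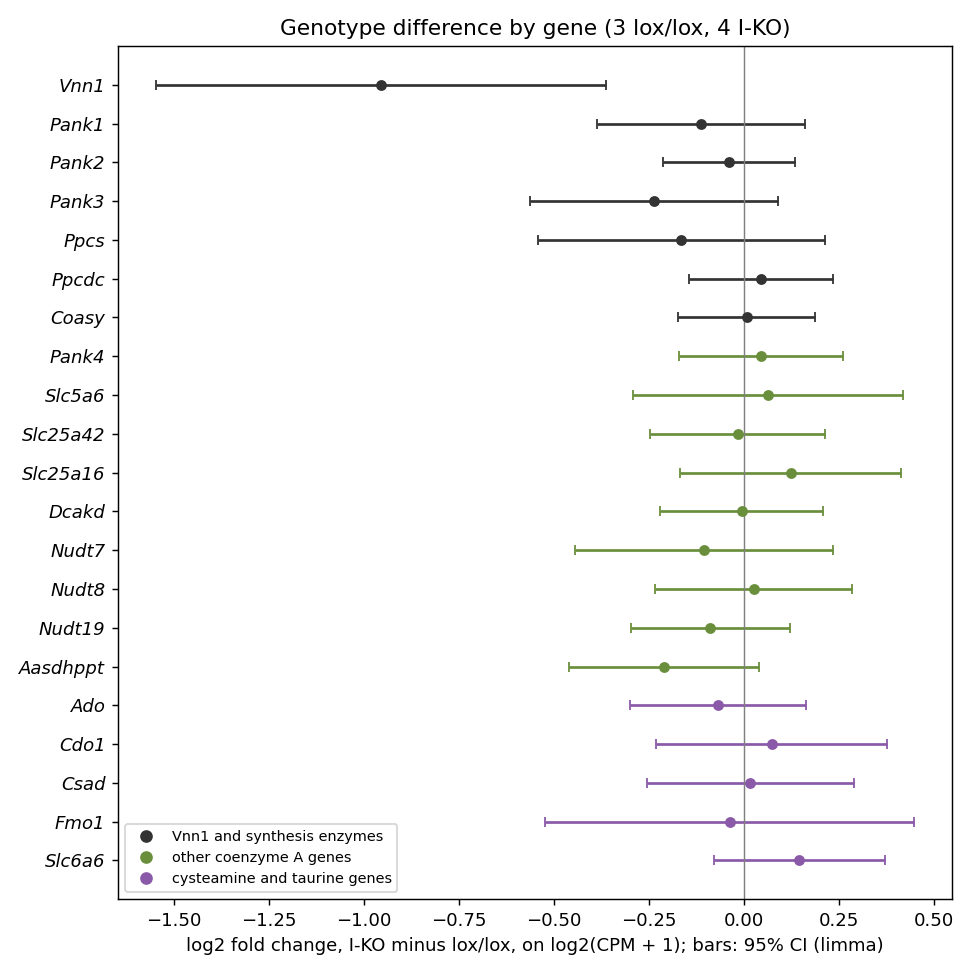
Log2 fold change of I-KO against lox/lox on log2(CPM + 1), with its 95% confidence interval from limma, for the 7 members, 9 other coenzyme A genes and 5 cysteamine and taurine genes. The interval of Vnn1, from -1.55 to -0.36, is the only interval plotted that leaves out 0.

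The interval of Vnn1 did not meet those of Pank2, Ppcdc and Coasy, whose lower ends were -0.21, -0.14 and -0.17. It overlapped those of Pank1, Pank3 and Ppcs. The differences between genes in fold change were not tested.

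Compared per length of all annotated exons, a choice that was not varied, the levels of the members fell into a higher and a lower set. Over all 7 libraries Pank3 had 30.0 CPM per kilobase of exon (range 21.3 to 34.7), Vnn1 16.9 (8.53 to 35.7), Coasy 15.4 (14.4 to 16.5), Ppcs 13.8 (10.4 to 16.1) and Pank2 11.03 (10.4 to 11.7). Each of these overlapped the next in order. Ppcdc followed with 2.38 CPM per kilobase (2.19 to 2.56), below every value of Pank2, and it overlapped Pank1 with 1.91 CPM per kilobase (1.55 to 2.20). By group means, Vnn1 was the second in this order in lox/lox, with 23.9 CPM per kilobase, and the fourth in I-KO duodena, with 11.6 CPM per kilobase, after Pank3, Coasy and Ppcs.

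**Figure D3:**
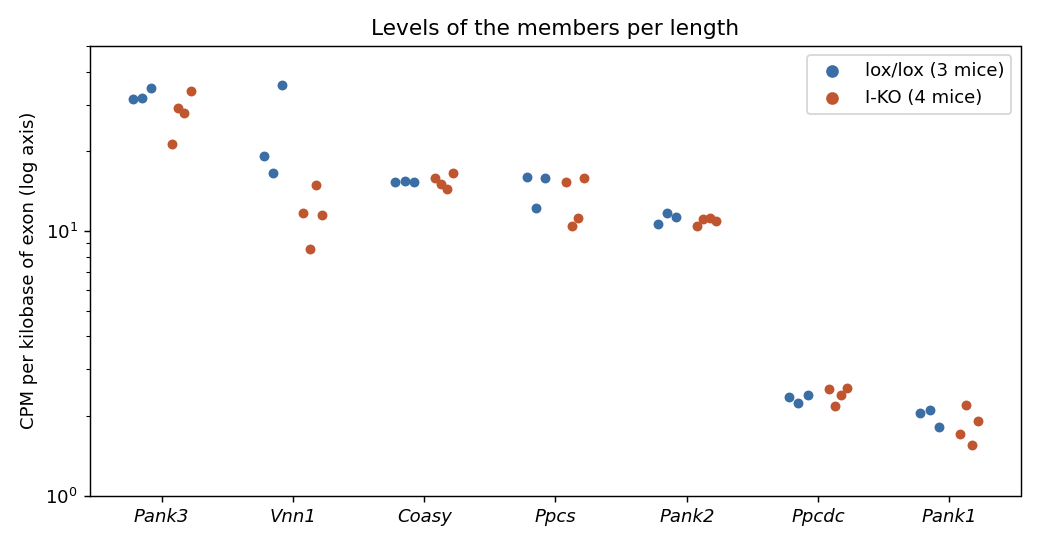
Level of each member in CPM per kilobase of annotated exon (log axis), with a point for each lox/lox and I-KO mouse. Pank3, Vnn1, Coasy, Ppcs and Pank2 lie above 8 CPM per kilobase in all 7 libraries, and Ppcdc and Pank1 lie below 3.

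The other genes that supply, move, use or break down coenzyme A were examined as a list of 9. It holds Pank4, a relative of the kinases without kinase activity in mammals, the vitamin transporter gene Slc5a6, the mitochondrial carriers Slc25a42 and Slc25a16, Dcakd, the coenzyme A hydrolases Nudt7, Nudt8 and Nudt19, and the phosphopantetheinyl transferase Aasdhppt. All 9 could be tested, and limma called 0 at the 0.05 level, whether p was adjusted or not, with 4 higher and 5 lower by sign. Their median log2 fold change was -0.00446, with a range from -0.21 for Aasdhppt to 0.12 for Slc25a16. The latter value was 0.02 with I-KO replicate 4 left out and 0.20 with I-KO replicate 1 left out. Aasdhppt, which attaches the coenzyme A arm to acyl carrier proteins, had 11.2 to 12.9 CPM among controls and 8.79 to 11.7 CPM among I-KO mice. Pank4 had 21.1 to 24.6 CPM and 20.8 to 25.1 CPM.

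Cysteamine, the other product of vanins, is oxidised to hypotaurine and taurine, and 5 genes of that route were examined. They were the cysteamine dioxygenase gene Ado, Cdo1 and Csad of the route from cysteine, Fmo1, whose product oxidises hypotaurine, and the taurine transporter gene Slc6a6. Of the 5, limma called 0 at the 0.05 level, whether p was adjusted or not, with a median log2 fold change of 0.02. The range was from -0.07 for Ado, with mean CPM of 14.5 (± 0.352 SD, n = 3) and 13.8 (± 1.74 SD, n = 4), to 0.15 for Slc6a6, with mean CPM of 263 (± 21.1 SD, n = 3) and 292 (± 26.4 SD, n = 4).

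Genes with the profile most like that of Vnn1 were found by the root mean square difference of centred log2(CPM + 1) values over the 7 libraries, among 13398 other genes. The nearest were Paqr7 (difference 0.19), Retsat (0.25), Acaa1b (0.25), Slc25a20 (0.29) and Acot4 (0.31), where the median gene was at 0.62. Paqr7 encodes a membrane progestin receptor, Retsat a retinol saturase, Acaa1b a peroxisomal thiolase, Slc25a20 the mitochondrial acylcarnitine carrier and Acot4 a peroxisomal acyl-CoA thioesterase. Since they were chosen for this likeness, their values are a description. Acaa1b averaged 57.5 CPM among controls (± 22.6 SD, n = 3) against 27.4 CPM among I-KO mice (± 3.80 SD, n = 4), and the single controls gave 41.5, 47.7 and 83.3 CPM, in replicate order. Slc25a20 averaged 113 CPM among controls (± 14.4 SD, n = 3) against 63.3 CPM among I-KO mice (± 7.81 SD, n = 4). Paqr7, the nearest, averaged 82.9 CPM among controls (± 21.5 SD, n = 3) against 41.8 CPM among I-KO mice (± 12.6 SD, n = 4). None of the 5 passed in the main fit, with adjusted p from 0.116 for Slc25a20 to 0.954 for Acot4 by limma. The groups of Acot4 overlapped. All 5 genes were highest in lox/lox replicate 3, as Vnn1 was.

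**Figure D4:**
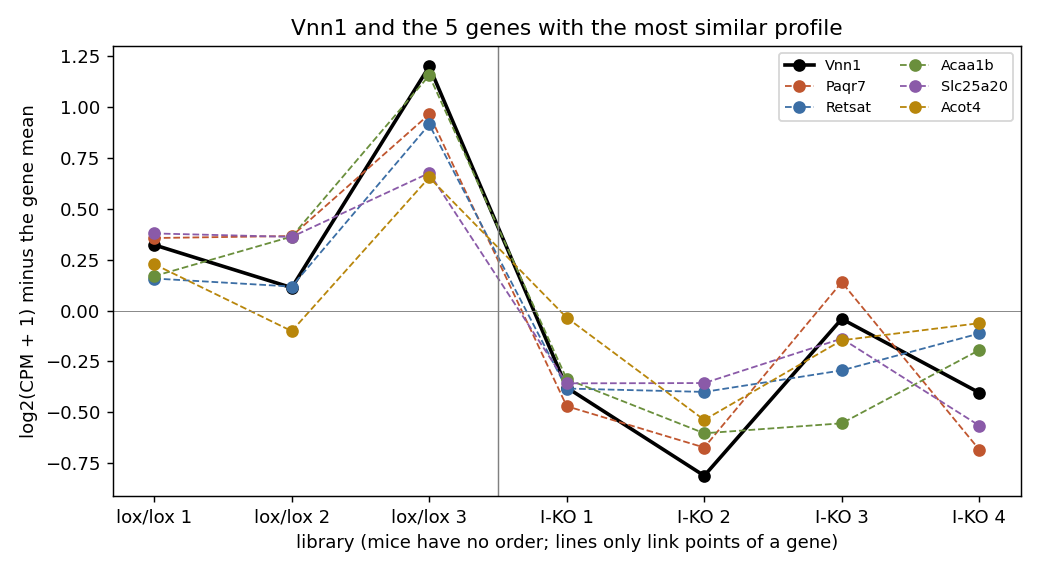
Centred log2(CPM + 1) of Vnn1 (solid line) and of the 5 genes nearest to it by profile (dashed lines) in each library; the lines only link the points of a gene. All 6 genes peak in lox/lox replicate 3 and have lower group means in I-KO duodena.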

How the data were processed

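RNA of 7 duodena was read as single reads of 100 bases. The submitters' processing notes name FastQC 0.11.2, TopHat2 2.0.13, Picard 1.80, HTSeq 0.6.1, edgeR and mm10. The authors deposited signal values, counts per gene scaled to an adjusted library size (CPM), to 2 decimals. Columns sum to between 969589 and 1098618, and 1 row without a gene name was dropped. All values lie within 0.00564 CPM of a multiple of 1 read, which is worth 0.0393 to 0.0530 CPM, and depth and counting error were taken from these read numbers. Count tests were not run. The limit set for them was that 95% of low values lie within 0.1 of a read of a whole number, which 5 libraries missed, although the read numbers themselves are not ambiguous. Rounding to 2 decimals can shift a value by up to 0.005 CPM, more than 0.1 of a read in those 5 libraries. The limit could thus be missed through rounding alone.

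Genes above 1 CPM in at least 3 libraries were tested as log2(CPM + 1) with limma 3.58.1 in R 4.3.3, genotype being the only term, with two-sided p-values and Benjamini-Hochberg adjustment over all 13399. The filter follows the study's methods, which name a negative binomial model but not its terms. Single values were compared by an exact two-sided permutation test over 35 splits. The labels number the mice of a group as biological replicates, and no pair of replicates agreed within sampling noise (lowest chi-square per degree of freedom 13.5). Members, lists and tests were chosen with earlier results of these data known. Named by rule were all members, Ppara, the extremes of both further lists and the 5 genes nearest to Vnn1. Pank4, Fabp1, Vil1, Lgr5, the Ppcs gap and the comparisons per length were added after values were seen. Older symbols (Emr1, Igj) were matched through RefSeq synonyms. Exon lengths and coordinates come from GENCODE M21, in which 13922 of the 14795 symbols were found. Each length is the union of all annotated exons of a gene. Levels per kilobase and kinase shares depend on this choice, which was not varied. Markers of 9 cell classes were summed. Figures used matplotlib 3.10.9.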

Additional observations from a re-analysis of the deposited data

How the results depend on the processing

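No member passed an adjusted p of 0.05 by limma in any of the 17 alternatives, which changed the scaling, the filter, the pseudocount, the variance model or the libraries used. Vnn1 had an unadjusted p below 0.05 in all 17, with log2 fold changes between -1.18 and -0.63 and adjusted p between 0.251 and 0.9998. Pank3 was below an unadjusted 0.05 in 2 of the 17, with the replicate number as a block and without I-KO replicate 4. The number of genes called was 3 to 5 with single libraries left out and 9 with an intensity trend and robust fit, where Slc25a20 also passed (-0.83, adjusted p = 0.0466 from limma). The cause was not tested. The ratio of Vnn1 to enterocyte transcripts was 0.406 to 0.605 with single libraries left out, and no longer passed because the smallest exact p is then 0.0667 or 0.1.

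Small differences changed sign. Coasy was -0.029 with column totals, -0.023 with the replicate block and -0.023 to 0.040 with single libraries left out. Without both libraries with acinar transcripts, an alternative chosen after seeing the data, Pank2 was 0.014, Ppcdc -0.0021, Coasy -0.0016 and Pank4 -0.032. The replicate block called 3 genes and 0 members, and drops I-KO replicate 4, which has no partner. Deviations of same-numbered libraries from their group means had r of -0.01, 0.18 and -0.01 over genes. Other pairings of a lox/lox with an I-KO library ranged from -0.35 to 0.28. These values cannot show whether same-numbered mice shared a litter or a batch.

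The planned edgeR and DESeq2 tests on read numbers were not run. The median half-width of a 95% interval was 0.24 on the log2 scale. Smaller differences were thus mostly not detectable with 3 and 4 mice, even before p was adjusted. After adjustment larger differences also failed to pass, as for Vnn1 at -0.95 (adjusted p = 0.791 from limma).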

Other observations

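Markers of other cell classes were summed in each library. Of 7 neutrophil and macrophage markers in the table, such as Csf1r and Lyz2, 5 were higher and 2 lower in I-KO duodena by sign, with sums of 197 to 284 CPM among controls and 251 to 304 CPM among I-KO mice. The 6 smooth muscle genes, Myh11 and Acta2 among them, were all higher by sign, with sums of 1063 to 1320 CPM and 1102 to 1550 CPM, and the highest sum was in I-KO replicate 1. T cell genes summed to 256 to 294 CPM and 216 to 348 CPM, and B and plasma cell genes to 3082 to 4395 CPM and 2520 to 4196 CPM. The 6 proliferation and crypt genes, 1 higher and 5 lower in I-KO duodena by sign, summed to 509 to 601 CPM among controls. Among I-KO mice they summed to 366 to 691 CPM. Adipocyte genes summed to 18.9 to 34.0 CPM and 19.6 to 28.2 CPM. Of the Brunner gland and stomach list, 1 gene, Tff2, was matched, at 0 to 1.20 CPM. By limma 0 genes of these lists passed an adjusted p of 0.05. At an unadjusted p of 0.05 there was 1, the stem cell marker Lgr5, against 4.74% of all genes tested in either direction. Lgr5 had means of 5.11 CPM among controls and 7.08 CPM among I-KO mice, and was the only gene of the crypt list that was higher. The part of these cells in the value of Vnn1 was not tested.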
